A study of Mus musculus with 3 samples.

Results

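The S100 proteins S100a4, S100a6, S100a10 and S100a11, the galectins Lgals1 and Lgals3, the intermediate filament protein Vim and the annexin Anxa2 were followed through thymic invariant natural killer T (iNKT) cells of mice with and without bone marrow transplantation (BMT). These 8 genes were taken by symbol from the 30406 genes that the 3 single-cell RNA libraries had in common, and each symbol matched 1 row. The C57BL/6 library (label WT) came from C57BL/6 mice at 7 weeks by the labels, without irradiation or BMT. The BM only library (label Non-GVHD) and the BM + Spl library (label GVHD) came from F1 (C57BL/6 x BALB/c) mice at 16 weeks, 9 weeks after lethal irradiation and transfer of T cell-depleted C57BL/6 marrow, and BM + Spl recipients were also given C57BL/6 splenic cells, which brought on graft-versus-host disease (GvHD). Mice were pooled within each library. CD8+ cells were removed from the thymus cells by beads before sorting, and the sort gate was TCRβ+CD1d-tet+CD24-NK1.1-, where the CD1d tetramer binds the invariant T cell receptor and the absence of NK1.1 leaves out the most mature NKT1 cells. Each condition is 1 library, so no test was possible, and every interval given covers counting error only.

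S100 proteins are small proteins, most of which bind calcium, and S100a10 forms a complex with Anxa2 at the plasma membrane. Galectins bind galactose-containing sugars inside and outside the cell, Vim builds intermediate filaments, and Anxa2 binds membrane phospholipids in a calcium-dependent way. In T cells, transcripts of several of these genes are commonly higher in effector and memory cells, which migrate through tissue, than in naive cells. Thymic iNKT cells include NKT2 cells, which make interleukin 4 and hold many precursors of the other subsets, NKT1 cells, which make interferon γ, and NKT17 cells, which make interleukin 17.

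The 4 S100 genes lie on chromosome 3 in GRCm38, the build on which the files are based, all on the + strand (GENCODE vM21). S100a4 occupies chr3:90603771-90606045 and S100a6 chr3:90612882-90624181, while S100a11 at chr3:93520488-93526287 and S100a10 at chr3:93555080-93564643 form a second close pair. Lgals1 lies at chr15:78926725-78930465, Lgals3 at chr14:47367751-47386160, Vim at chr2:13573927-13582826 and Anxa2 at chr9:69453620-69491795, each also on the + strand. All are protein-coding. S100a4 overlaps Gm42674, a gene listed for the C57BL/6 library alone, where it had 0 UMIs, and Anxa2 overlaps the antisense gene Gm16144, which had 1 UMI in C57BL/6, 1 in BM only and 2 in BM + Spl. Lgals1 has 2 annotated pseudogenes and S100a11 has 1, from which reads could not be separated here.

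The bases upstream of the start sites of S100a4 and Lgals3, whose levels differed most between subsets, and of S100a11 and Anxa2, whose levels differed less, are shown from RefSeq (GRCm38.p6), where 6 of the 8 genes were found. Each is written 5′ to 3′ and ends before the exon annotated at that start, and capitals mark TATAAA or the AP-1 motif TGANTCA, searched on both strands of the 250 bases before the RefSeq start. The Lgals3 stretch lies inside the annotated gene, downstream of 2 exons that begin longer transcripts.
S100a4, chr3:90603520-90603769, + strand: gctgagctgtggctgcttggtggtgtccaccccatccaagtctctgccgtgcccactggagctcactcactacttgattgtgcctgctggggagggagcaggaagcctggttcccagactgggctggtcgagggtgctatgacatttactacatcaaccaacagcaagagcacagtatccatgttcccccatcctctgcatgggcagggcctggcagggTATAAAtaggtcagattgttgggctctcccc
Lgals3, chr14:47373610-47373812, + strand: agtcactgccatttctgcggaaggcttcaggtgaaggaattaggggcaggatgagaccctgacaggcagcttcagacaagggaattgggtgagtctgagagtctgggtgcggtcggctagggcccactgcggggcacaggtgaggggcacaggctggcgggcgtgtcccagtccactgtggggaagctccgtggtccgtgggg
S100a11, chr3:93520246-93520487, + strand: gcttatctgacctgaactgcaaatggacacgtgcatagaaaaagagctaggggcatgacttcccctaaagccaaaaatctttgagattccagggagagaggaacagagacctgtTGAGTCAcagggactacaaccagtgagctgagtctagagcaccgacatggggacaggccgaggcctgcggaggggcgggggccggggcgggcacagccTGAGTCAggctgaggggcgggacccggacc
Anxa2, chr9:69453433-69453619, + strand: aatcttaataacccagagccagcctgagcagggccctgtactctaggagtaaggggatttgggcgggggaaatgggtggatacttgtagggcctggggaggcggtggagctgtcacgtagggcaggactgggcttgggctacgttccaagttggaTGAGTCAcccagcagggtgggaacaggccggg
TATAAA occurred 31 bases before the RefSeq start in S100a4, 32 in Vim and 17 in Anxa2, against 12.4% of 32851 RefSeq promoters of the same length. The last 2 matches are in stretches not printed. The Anxa2 match lies past the annotated gene start, and the Vim window lies inside the annotated gene. TGANTCA occurred at 136 and 38 bases before the start in S100a11 and at 95 in Anxa2, against 6.75% of promoters. Neither motif was in the Lgals3 and S100a6 windows, and the T-box letters AGGTGTGA were in none of the 6 windows, against 1.12% of promoters.

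Cells were assigned to subsets by marker genes that include none of the 8 genes, after removal of cells with 200 or fewer genes, 6000 or more genes, or at least 10% mitochondrial UMIs (4434 in C57BL/6, 5970 in BM only and 5557 in BM + Spl). A UMI stands for 1 captured transcript. The NKT1 gate, led by Tbx21, Cxcr3 and Nkg7, held 958 cells in C57BL/6, 2627 in BM only and 761 in BM + Spl. The NKT2 gate, led by Zbtb16, Il17rb and Izumo1r, held 2039, 1036 and 1797 cells, and the NKT17 gate, with Il23r, Il1r1 and Ccr6 among its markers, held 419, 426 and 249. The names were checked against genes outside the gates. In the BMT libraries Ccl5 was at 1459 and 533 UMIs of the gene per 1000000 UMIs of all genes (CPM) in NKT1-gated cells of BM only and BM + Spl against 8.69 and 14.4 in NKT2-gated cells, and Il17a at 143 and 109 CPM in NKT17-gated cells. In the C57BL/6 library Ccl5 was at 1205 CPM in NKT1-gated cells, whereas Il17a reached only 4.55 CPM in NKT17-gated cells, where Tmem176b, another gene of NKT17 cells, was at 85.5 CPM against 4.72 CPM in NKT2-gated cells. Other check genes set the gates apart less well. In BM + Spl the NKT2 check Gata3 was at 105, 94.1 and 88.5 CPM in NKT2-gated, NKT1-gated and NKT17-gated cells. Ccr7, another NKT2 check, was there at 187, 135 and 272 CPM, and Il13, the last, at 48.2, 22.6 and 16.3 CPM. The NKT1 check Gzma was at 8.40 CPM in NKT1-gated and 1.60 CPM in NKT2-gated cells of BM + Spl. Cells outside the iNKT lineage were also present, since the regulatory T cell (Treg) gate, which needs Foxp3, held 2, 614 and 674 cells. In the BMT libraries NKT1-gated and NKT17-gated cells also included cells with T cell receptor V beta segments not taken as those of iNKT cells. Of NKT1-gated cells with a V beta call, 92.3% in BM only but 38.4% in BM + Spl had an iNKT segment, as given below. Of NKT17-gated cells with a call, 71.4% and 49.3% had one. Subset ratios in the BMT libraries, above all in BM + Spl, may thus include cells outside the iNKT lineage.

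The C57BL/6 library stood apart from the BMT libraries. Its cells had a median of 6.52% mitochondrial UMIs against 0.688% in BM only and 0.512% in BM + Spl, and its table was made with Cell Ranger 3.0.2 and the other 2 with 7.0.0, by their headers. At least 2 V beta UMIs were found in 3.38% of its cells against 82.7% and 85.7%. The paper names library kits for either end of the transcript without saying which made each library, and the part of the kit was not tested. Median UMIs per cell were 11885, 4734 and 6485 in C57BL/6, BM only and BM + Spl, and 43 cell barcodes were shared between the BMT libraries and 0 between C57BL/6 and either of them. Levels in C57BL/6 and after BMT cannot be told apart from these differences, so subsets were compared within a library and only the BMT libraries with each other. Subsets differed in depth as well, with a median of 6265 UMIs in NKT1-gated and 13392 in NKT2-gated C57BL/6 cells, 4303 and 7782 in BM only and 4361 and 8679 in BM + Spl. A level in CPM is thus a share of a subset's UMIs, and a gene may be higher in CPM without more UMIs per cell.

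S100a4, which binds non-muscle myosin and is a marker of effector and memory T cells, was lowest in NKT2-gated cells in each library. In C57BL/6 it stood at 199 CPM (95% interval 194 to 204) in NKT2-gated, 578 CPM in NKT1-gated and 673 CPM in NKT17-gated cells. In BM only the same subsets had 88.1, 412 and 843 CPM, and in BM + Spl 99.8, 806 and 780.3 CPM. The log2 ratio of NKT1-gated over NKT2-gated cells was 1.54 (1.48 to 1.60) in C57BL/6, 2.22 (2.11 to 2.34) in BM only and 3.01 (2.93 to 3.10) in BM + Spl, with 95% intervals in parentheses here and after every ratio. NKT17-gated cells exceeded NKT2-gated cells by 1.76, 3.26 and 2.97 on the log2 scale. It was the member with the widest NKT1-to-NKT2 ratio in each library, while the intervals of NKT1-gated and NKT17-gated cells overlapped in BM + Spl. Per cell, C57BL/6 NKT1-gated cells held a mean of 3.88 UMIs and NKT2-gated cells 2.81, so that the ratio per cell was narrower than the ratio of CPM.

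S100a6, another member of the family, lies close to S100a4 on the chromosome. It was alike over the subsets of C57BL/6 and higher in NKT1-gated and NKT17-gated than in NKT2-gated cells of the BMT libraries. In C57BL/6 its levels were 993 CPM in NKT1-gated, 933 in NKT2-gated and 931 in NKT17-gated cells, all within 1.5-fold of each other. In BM only they were 1903, 854 and 2127 CPM, and in BM + Spl 1765, 923 and 1423 CPM. NKT1-gated cells exceeded NKT2-gated cells by a log2 ratio of 1.16 (1.12 to 1.19) in BM only and 0.94 (0.89 to 0.98) in BM + Spl. For NKT17-gated cells the ratio was 1.32 (1.27 to 1.37) in BM only and 0.63 (0.57 to 0.68) in BM + Spl, where it passed under 1.5-fold (0.52) when mitochondrial and ribosomal protein genes were left out of the total.

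S100a10, the partner of Anxa2, and S100a11 were within 1.5-fold between NKT1-gated and NKT2-gated cells of each library. Among the NKT1, NKT2 and NKT17 gates, both were highest in NKT17-gated cells of C57BL/6 and BM only. S100a10 ranged from 938 CPM in NKT1-gated to 1375 CPM in NKT17-gated cells of C57BL/6, from 1030.0 to 1623 CPM over the same gates in BM only, and from 1479 to 1530.1 CPM, in NKT1-gated and NKT2-gated cells, in BM + Spl. Its NKT1-to-NKT2 log2 ratio was -0.45, -0.31 and -0.05 in the 3 libraries, within 1.5-fold in each, and its NKT17-to-NKT1 log2 ratio was 0.55, 0.66 and 0.02. S100a11 in NKT1-gated, NKT2-gated and NKT17-gated cells was at 605, 681 and 825 CPM in C57BL/6 and 901, 843 and 1024 CPM in BM + Spl. In BM only it was at 1253 CPM in NKT17-gated cells against 745 CPM in NKT2-gated (log2 ratio 0.75 (0.69 to 0.81)) and 722 CPM in NKT1-gated cells (0.80 (0.74 to 0.85)).

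Lgals1, which encodes galectin 1, was highest in cycling and NKT17-gated cells among the iNKT subsets of C57BL/6, at 1189.9 and 987 CPM, and lowest in NKT1-gated cells at 441 CPM. BM only NKT1-gated and NKT2-gated cells held 911 and 924 CPM, with overlapping intervals. In BM + Spl NKT1-gated cells held 1911 CPM and NKT2-gated cells 869.6 CPM. The NKT1-to-NKT2 log2 ratio was therefore -0.49 (-0.55 to -0.43) in C57BL/6, -0.02 (-0.06 to 0.02) in BM only and 1.14 (1.10 to 1.18) in BM + Spl, while the NKT17-to-NKT2 ratio was 0.67, 1.07 and 0.99. The C57BL/6 NKT17 value fell to 0.57, under 1.5-fold, with median-of-ratios scaling.

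Lgals3, which encodes galectin 3, was highest in the NKT17 gate among the NKT1, NKT2, NKT17 and cycling gates of each library. NKT17-gated cells held 1684 CPM (95% interval 1653 to 1716) in C57BL/6, 2229 CPM (95% interval 2173 to 2286) in BM only and 816 CPM (95% interval 778 to 856) in BM + Spl. NKT2-gated cells held 174, 62.3 and 119.8 CPM, which gave log2 ratios of 3.28 (3.23 to 3.32), 5.16 (5.03 to 5.29) and 2.77 (2.67 to 2.86). This was the widest ratio of any member in C57BL/6 and BM only, and S100a4 was wider in BM + Spl. When the NKT17 gate asked for at least 4 rather than 2 marker UMIs, together with stricter NKT1 and NKT2 gates, the BM + Spl ratio became 3.88. NKT1-gated cells were at 131, 154 and 302 CPM, below NKT2-gated cells in C57BL/6 (log2 ratio -0.41) and above them in BM only (1.30) and BM + Spl (1.33).

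Vim stood at 513, 491 and 749 CPM in NKT1-gated, NKT2-gated and NKT17-gated cells of C57BL/6, at 1160.3, 847 and 1531 CPM in BM only and at 1865, 722 and 1631 CPM in BM + Spl. NKT2-gated cells were lowest in both BMT libraries. The NKT1-to-NKT2 log2 ratio of Vim was 0.06 in C57BL/6, 0.45 in BM only and 1.37 in BM + Spl, of which the last passed 1.5-fold. Its NKT17-to-NKT2 ratio was 0.61 in C57BL/6, which was under 1.5-fold with median-of-ratios scaling (0.51), 0.85 in BM only and 1.18 in BM + Spl.

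Anxa2 was at 146, 151 and 136 CPM in NKT1-gated, NKT2-gated and NKT17-gated cells of C57BL/6, where the intervals of NKT1-gated cells overlapped with those of both others and NKT17-gated cells lay below NKT2-gated cells (log2 ratio -0.14 (-0.25 to -0.04)). In BM only NKT1-gated cells held 431 CPM against 259 in NKT2-gated cells and 248 in NKT17-gated cells, and in BM + Spl the levels were 503, 253 and 445 CPM. The NKT1-to-NKT2 log2 ratio was 0.74 (0.66 to 0.81) in BM only and 0.99 (0.91 to 1.07) in BM + Spl. With gates set on cells thinned to 2500 UMIs, the BM only value was 0.57, just under 1.5-fold. The same gates gave 0.55 for NKT17-gated over NKT2-gated cells of BM + Spl, against 0.81 with all UMIs. In BM only, NKT1-gated cells were shallower and did not hold more Anxa2 UMIs per cell on average than NKT2-gated cells. The higher level there is thus one of CPM only. S100a10 and Anxa2, whose proteins bind each other, thus followed different orders over the subsets.

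**Figure D1:**
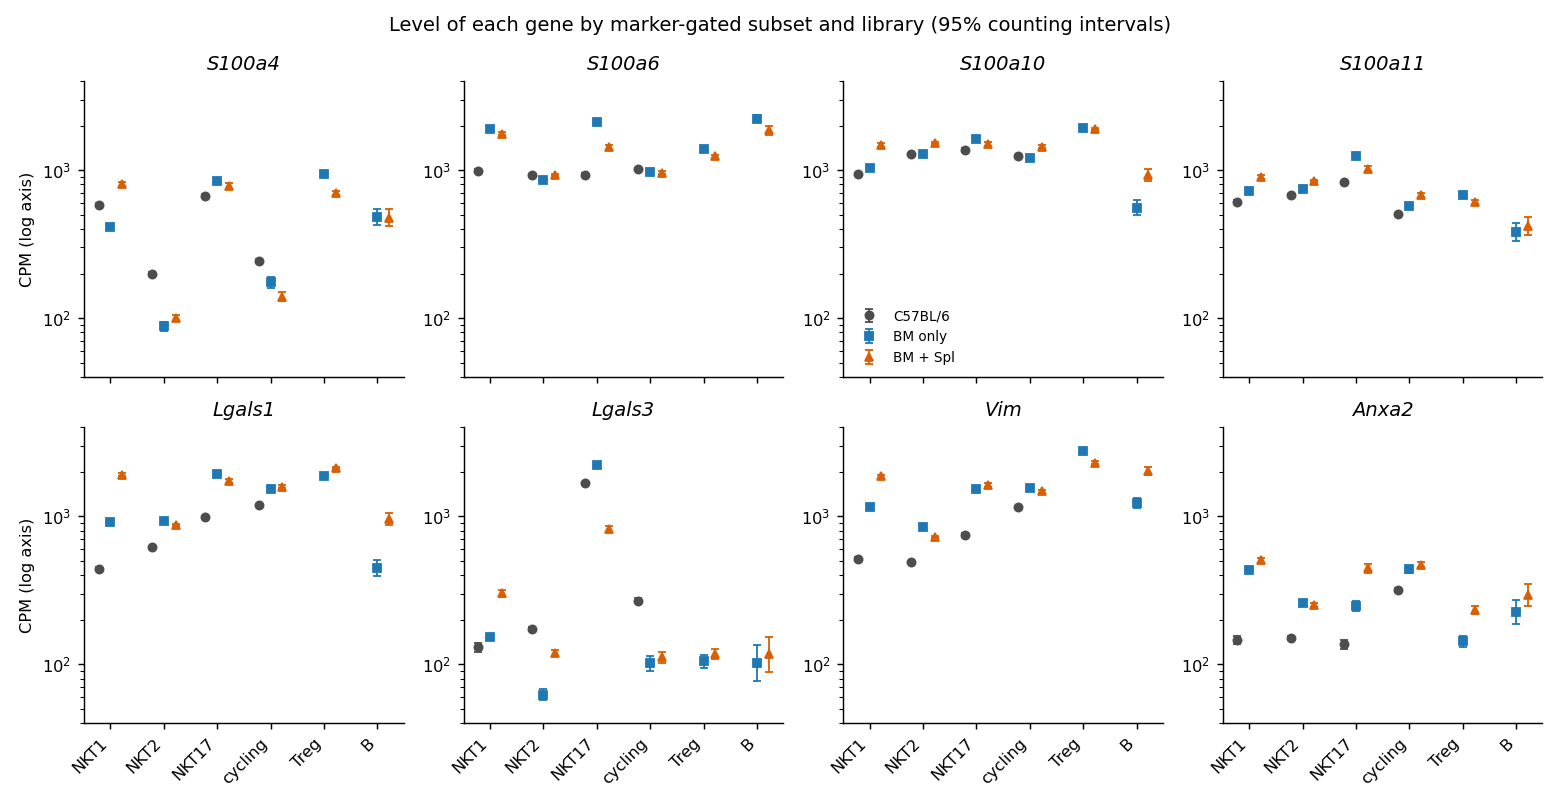
Level of each gene in CPM (log axis) in marker-gated subsets of at least 50 cells, with 95% counting intervals, for C57BL/6 (circles), BM only (squares) and BM + Spl (triangles). S100a4 is lowest in NKT2-gated cells in each library, Lgals3 reaches 2229 CPM in NKT17-gated cells of BM only, and S100a10 lies between 938 and 1623 CPM in the NKT1, NKT2 and NKT17 gates.

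Over the 8 genes, 1 was higher past 1.5-fold in NKT1-gated than in NKT2-gated cells of C57BL/6 and 0 were lower, where 13.4% of genes tested higher and 10.8% lower passed the same rule. In BM only 4 of 8 were higher and 0 lower, against 14.6% of genes tested higher and 11.4% lower, and in BM + Spl 6 of 8 were higher and 0 lower, against 14.6% of genes tested higher and 10.5% lower. The share of the 8 genes in C57BL/6 was near the background, and the shares in the BMT libraries were above it. Genes and gates were chosen with earlier results of these data known, so such shares, here and below, are description only. The median log2 ratio of the 8 genes was -0.11, 0.59 and 1.06 in C57BL/6, BM only and BM + Spl, beside medians of 0.04, -0.03 and 0.03 over all genes tested. Between cells with an iNKT V beta, the median was 0.56 in BM only and 0.88 in BM + Spl, beside -0.04 and 0.01 over all genes tested.

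For NKT17-gated over NKT2-gated cells, 4 of 8 were higher and 0 lower in C57BL/6, where 7.75% of genes tested higher and 4.97% lower passed. In BM only 6 of 8 were higher and 0 lower, against 9.7% of genes tested higher and 6.78% lower, and in BM + Spl 6 of 8 and 0, against 11.3% of genes tested higher and 6.01% lower. The median log2 ratios were 0.44, 0.96 and 0.90, beside 0.10, 0.02 and 0.05 over all genes tested. Among the cells at or under the median UMIs of their gate, these medians were 0.45, 1.56 and 1.57, so that the BMT values grew by over 1.5-fold in cells of low depth.

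**Figure D2:**
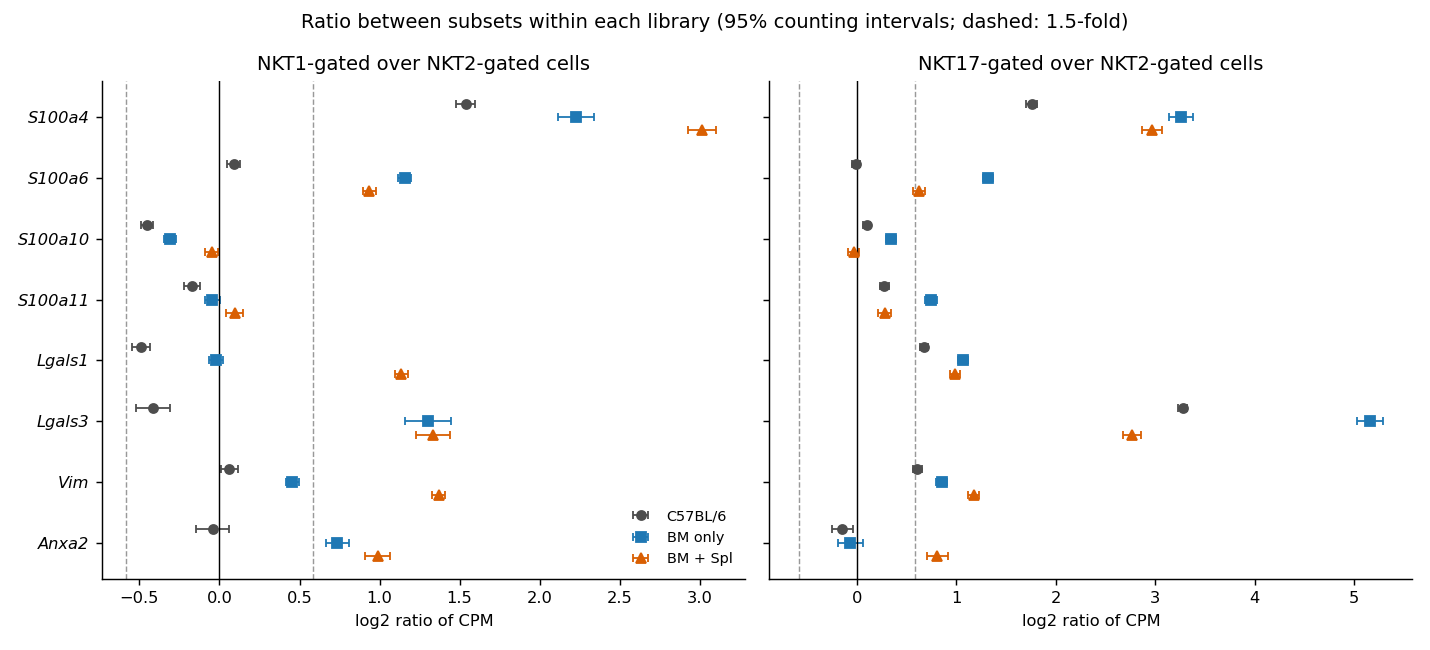
Log2 ratio of CPM of each gene, NKT1-gated over NKT2-gated cells (left) and NKT17-gated over NKT2-gated cells (right), in each library, with 95% counting intervals, a line at 0 and dashed lines at 1.5-fold. S100a4 lies past 1.5-fold in all 3 libraries on both sides, while Lgals1 and Vim pass it in the NKT1 comparison only in BM + Spl.

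Depth was then made equal by thinning each cell to 2500 UMIs, with 13, 835 and 472 shallower cells left out in C57BL/6, BM only and BM + Spl. A UMI of S100a4 was found in 21.6% (19.8% to 23.4%) of NKT2-gated and 40.5% (37.4% to 43.7%) of NKT1-gated C57BL/6 cells (95% Clopper-Pearson intervals), and before thinning in 42.5% and 51.5%. In BM only the thinned shares were 11.6% and 43.4% (unthinned 20.4% and 49.9%), and in BM + Spl 13.5% and 60.7% (unthinned 24.0% and 68.6%). The share in NKT1-gated cells was thus above that in NKT2-gated cells in each library at equal depth.

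A UMI of Lgals3 was found in 77.1%, 77.8% and 37.6% of thinned NKT17-gated cells in C57BL/6, BM only and BM + Spl (unthinned 90.2%, 83.8% and 46.6%). The last value was the lowest, with an interval of 31.5% to 43.9%. In NKT2-gated cells the thinned shares were 17.2%, 7.02% and 9.83% (unthinned 34.5%, 14.8% and 16.5%). B-gated cells, taken for comparison with free RNA, had Lgals3 in 21.3% of 61 thinned BM only cells and 20% of 50 thinned BM + Spl cells and S100a4 in 42.6% and 42.0%, at median depths of 6356 and 7955 UMIs before thinning. As levels, B-gated cells of BM only and BM + Spl held 484 and 478 CPM of S100a4, above the 88.1 and 99.8 CPM of NKT2-gated cells, and 103 and 118 CPM of Lgals3 against 62.3 and 119.8 CPM. They therefore gave no level of free RNA for these genes, and the part of free RNA in the NKT2 shares was not tested. S100a10 was found in at least 85.9% of NKT1-gated, NKT2-gated or NKT17-gated cells in any library.

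Summed over the 8 genes, a thinned NKT2-gated cell held a median of 9 UMIs in C57BL/6, 10 in BM only and 11 in BM + Spl. NKT1-gated cells had medians of 8, 15 and 22 UMIs, and NKT17-gated cells 17, 29 and 22. Cells with a UMI of at least 7 of the 8 genes made up 10.3%, 23.9% and 39.3% of NKT1-gated cells and 7.02%, 4.82% and 5.66% of NKT2-gated cells. Sums within a subset spread widely, from 6 UMIs at the 10th to 30 at the 90th percentile in BM only NKT1-gated cells.

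**Figure D3:**
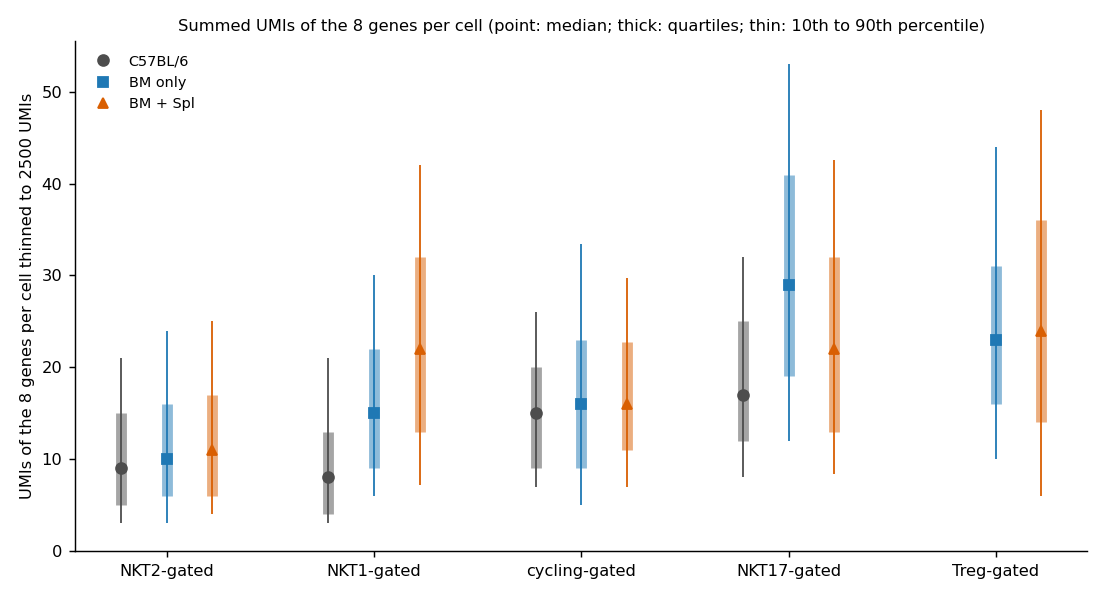
UMIs of the 8 genes summed in each cell thinned to 2500 UMIs, by gate and library, with the median (point), quartiles (thick bar) and 10th to 90th percentile (thin line) over cells. NKT2-gated medians lie between 9 and 11 UMIs in the 3 libraries, and NKT1-gated medians at 8, 15 and 22.

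Cells in cycle, gated by Mki67, Top2a and 5 other genes, were compared with NKT2-gated cells as well. Vim exceeded the NKT2-gated level by log2 ratios of 1.23 (1.20 to 1.27), 0.87 (0.82 to 0.93) and 1.03 (0.99 to 1.07) in C57BL/6, BM only and BM + Spl, and Anxa2 by 1.08, 0.76 and 0.89. Lgals1 exceeded it by 0.94, 0.72 and 0.86, whereas S100a11 was below it by log2 ratios of -0.43, -0.38 and -0.31, within 1.5-fold. Of the 8 genes 4 were higher and 0 lower in C57BL/6, where 12.9% of genes tested higher and 9.43% lower passed. In BM only 5 were higher and 0 lower, against 11.8% of genes tested higher and 9.18% lower, and in BM + Spl 3 were higher and 0 lower, against 11.8% of genes tested higher and 8.04% lower. These cells were the deepest of the gates, with medians of 22089, 14615 and 15622 UMIs, and the part of depth in these values was not tested.

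NKT2-gated cells with a UMI of Ccr7, the chemokine receptor found on iNKT precursors that leave the thymus, were compared with those without. In C57BL/6 Lgals1 was at 737 against 470.5 CPM and Lgals3 at 211 against 127 CPM, and these 2 of 8 passed 1.5-fold upward and 0 downward, where 1.02% of genes tested higher and 1.09% lower did. In BM only Lgals1 alone passed upward (1039 against 678 CPM) and 0 passed downward, against 0.832% of genes tested higher and 1.29% lower. In BM + Spl 0 passed upward and S100a4 alone was lower, at 80.1 against 147 CPM, against 0.436% of genes tested higher and 1.48% lower. Cells with a Ccr7 UMI were deeper in each library, with medians of 15000.5 against 12045, 8888 against 6002 and 9241 against 7418 UMIs.

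Treg-gated cells, compared in the BMT libraries, had the highest S100a10 of any gate, at 1920.4 CPM in BM only and 1902 CPM in BM + Spl. Vim stood there at 2759 and 2311 CPM and S100a4 at 948 and 698 CPM, log2 ratios over NKT2-gated cells of 3.43 and 2.81 for S100a4. Anxa2 went the other way in BM only, at 143 CPM, and was at 233 CPM in BM + Spl. Of the 8 genes 6 were higher and 1 lower than in NKT2-gated cells in BM only, where 17.5% of genes tested higher and 10.1% lower passed, and 3 were higher and 0 lower in BM + Spl, against 16.8% of genes tested higher and 10.5% lower.

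Treg-gated cells with a UMI of Klrg1, a receptor of effector Treg cells, numbered 184 in BM only and 254 in BM + Spl, against 430 and 420 without. S100a4 was at 1273 against 826 CPM in BM only and 1029 against 553 CPM in BM + Spl, and S100a6 at 1877 against 1219.7 and 1948 against 934 CPM. These were the 2 genes past 1.5-fold upward in BM only, with 0 downward, against 2.47% of genes tested higher and 2.47% lower. In BM + Spl 6 of 8 were higher and 0 lower, against 8.02% of genes tested higher and 7.32% lower, and Vim and Anxa2 were the genes within 1.5-fold.

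GvHD was addressed by BM + Spl against BM only. In all filtered cells together none of the 8 genes passed 1.5-fold, where 4.86% of genes tested higher and 5.34% lower did, and S100a6 and Lgals3 had the lowest log2 ratios at -0.46 and -0.58. Lgals3 went past 1.5-fold, to -0.78, without the myeloid, pDC, B, CD8, Treg and ungated cells. Cells fell differently into the subsets, with 44.0% of filtered cells in the NKT1 gate and 17.4% in the NKT2 gate in BM only, and 13.7% and 32.3% in BM + Spl.

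Within NKT1-gated cells S100a4, Lgals1, Lgals3 and Vim were higher in BM + Spl. S100a4 stood at 806 against 412 CPM, a log2 ratio of 0.97 (0.90 to 1.03), and Lgals1 at 1911 against 911 CPM, a ratio of 1.07 (1.03 to 1.11). Lgals3 had a ratio of 0.98 (0.87 to 1.08) and Vim of 0.68 (0.64 to 0.73). S100a10, S100a11 and Anxa2 were higher within 1.5-fold (0.52, 0.32 and 0.22), and S100a6 was at -0.11. Thus 4 of 8 genes were higher and 0 lower, where 7.95% of genes tested higher and 8.12% lower passed, and the median over the 8 genes was 0.60, beside 0.04 over all genes tested.

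The T cell receptors of these cells differed between the libraries, and the ratios above cannot be told apart from this difference in the cells compared. Trbv1, Trbv12-2, Trbv13-1, Trbv13-2, Trbv13-3 and Trbv29 were taken here as the iNKT V beta segments. They were found in 92.3% of NKT1-gated cells with a V beta call in BM only (1977 with and 165 without). In BM + Spl the share was 38.4% (245 with and 393 without). Treg-gated cells had them in 31.8% in BM only and 28.3% in BM + Spl. Zbtb16 encodes the iNKT transcription factor PLZF and belongs to the NKT2 list. It was at 38.9 CPM in BM + Spl NKT1-gated cells with an iNKT V beta and at 3.04 CPM in those with another V beta. In BM only the same groups had 46.2 and 31.7 CPM. Tnfrsf4, a receptor of activated and regulatory T cells, was at 459.5 CPM in NKT1-gated cells of BM + Spl and 29.0 CPM in those of BM only. Ccr7 was at 135 and 13.7 CPM, Gzma, a granzyme of cytotoxic cells, at 8.40 and 364 CPM, and Cd74, a gene of antigen-presenting cells, at 619 and 139 CPM. Cd74 was at 123 and 12.9 CPM in those with an iNKT V beta and 215 and 64.7 CPM in those with another V beta. Both groups were below all NKT1-gated cells of their library, so the cells without either call held more.

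Among NKT1-gated cells with an iNKT V beta, S100a4 was at 611 CPM in BM + Spl and 391 CPM in BM only (log2 ratio 0.64 (0.53 to 0.76)), and Lgals1 at 1637 and 888 CPM (0.88 (0.81 to 0.95)). Lgals3 and Vim no longer passed, at 0.56 (0.35 to 0.76) and 0.31 (0.24 to 0.39). This left 2 of 8 genes higher and 0 lower, against 7.48% of genes tested higher and 8.42% lower, with a median of 0.47. Treg-gated cells carried such segments too, so an iNKT V beta alone does not set iNKT cells apart. A difference in the cells compared may therefore remain in these ratios. Among those with another V beta, 393 cells in BM + Spl and 165 in BM only, 5 of 8 were higher and 0 lower. Of all genes tested 9.65% were higher and 4.93% lower. Zbtb16 differed between these cells of the libraries, as given above, so these ratios too cannot be told apart from a difference in the cells compared. Within BM + Spl, NKT1-gated cells with another V beta and with an iNKT V beta were within 1.5-fold of each other for all 8 genes, so 0 passed in either direction, where 1.45% of genes tested higher and 1.74% lower did, and Vim and Lgals3 had the widest log2 ratios (0.47 and 0.47). The 6 myeloid marker genes together were at 1.19 CPM in BM only and 4.33 CPM in BM + Spl NKT1-gated cells, with 2 at 0 in each. Cells with at least 5 UMIs of these markers had been gated out first, so low values were set by the gates. The median over the 8 genes was 0.59 without the cells that held any such UMI, which for the same reason cannot measure the part of myeloid RNA. Cd68, a myeloid gene outside the gates, was at 2.89 CPM in BM only and 7.12 CPM in BM + Spl.

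NKT2-gated cells of BM + Spl and BM only were alike in 7 of the 8 genes to within 1.5-fold. S100a4 stood at 99.8 and 88.1 CPM, S100a6 at 923 and 854 CPM, and Vim at 722 and 847 CPM. Lgals3 was higher, at 119.8 against 62.3 CPM (log2 ratio 0.94 (0.80 to 1.09)), which with gates set on thinned cells came to 0.13 and was under 1.5-fold. By the rule 1 gene was higher and 0 lower, where 0.607% of genes tested higher and 0.847% lower passed. The median over the 8 genes was 0.15.

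In NKT17-gated cells Lgals3 was at 816 CPM in BM + Spl and 2229 CPM in BM only, a log2 ratio of -1.45 (-1.53 to -1.37). That ratio was -0.92 with stricter gates, -0.74 with gates on thinned cells and -2.18 in cells at or under the median UMIs of their gate. The gated cells differed in other genes too, with Tmem176a at 414 CPM in BM + Spl and 635 CPM in BM only, Zbtb16 at 109 and 181, Tnfrsf4 at 456 and 181 and Cd4 at 186 and 52.0, and their part in the ratio was not tested. Anxa2 was at 445 and 248 CPM, a ratio of 0.84 (0.70 to 0.99) that came to 0.38, under 1.5-fold, in cells at or under the median UMIs. S100a6 was at -0.58, just within 1.5-fold. It went past with stricter gates (-0.60), an iNKT V beta (-0.62) and median-of-ratios scaling (-0.63). It also did without mitochondrial and ribosomal protein genes in the total and without the 5% of cells with most UMIs (-0.59 in each). With gates on thinned cells it was at -0.39, in cells at or under the median UMIs at -0.41 and with the mean of CPM per cell at -0.52. The other 5 genes lay between -0.29 and 0.09. Of the 8 genes 1 was higher and 1 lower, where 5.01% of genes tested higher and 5.18% lower passed. An iNKT V beta was carried by 71.4% of called NKT17-gated cells in BM only and 49.3% in BM + Spl. Lgals3 in cells with such a V beta was at 1338 CPM in BM + Spl and 2503 CPM in BM only (-0.90 (-0.99 to -0.82)), and in cells with another V beta at 272 and 1684 CPM (-2.63 (-2.85 to -2.41)). The 6 myeloid markers were at 0 in NKT17-gated cells of both libraries, after cells with at least 5 such UMIs had been gated out. With an iNKT V beta 1 gene, Anxa2, was higher and 2, Lgals3 and S100a6, were lower, against 3.79% of genes tested higher and 5.85% lower.

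**Figure D4:**
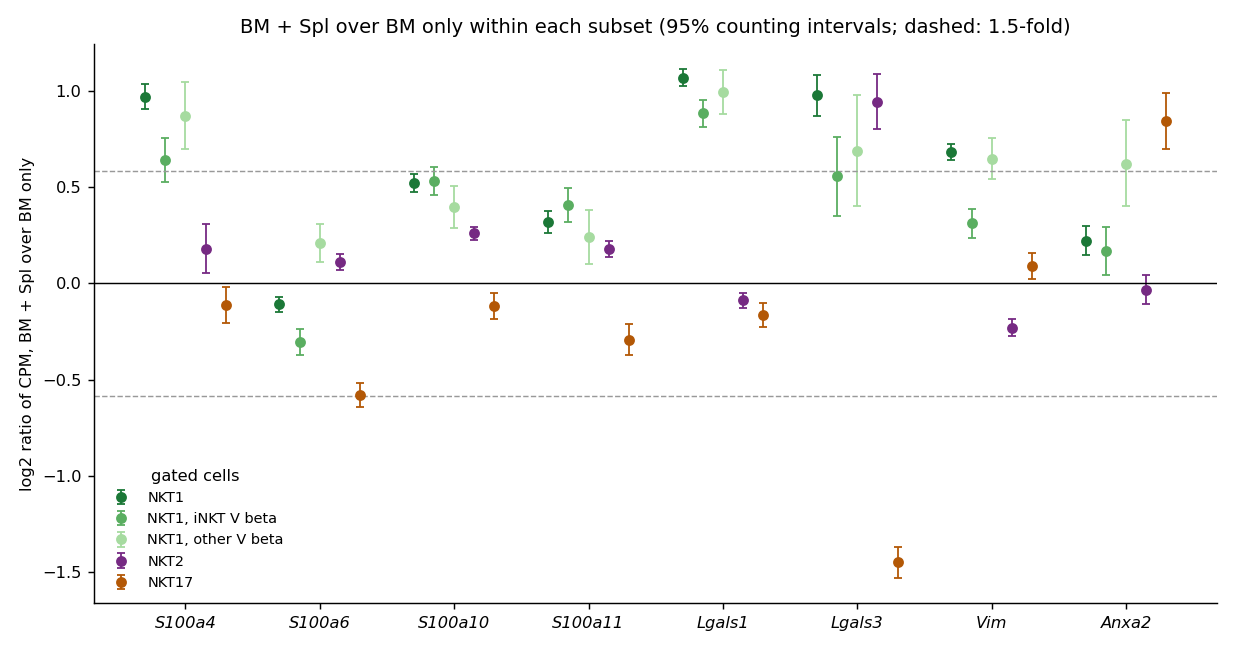
Log2 ratio of CPM, BM + Spl over BM only, of each gene in NKT1-gated cells (all, with an iNKT V beta and with another V beta), NKT2-gated and NKT17-gated cells, with 95% counting intervals and dashed lines at 1.5-fold. S100a4 and Lgals1 lie past 1.5-fold in the NKT1-gated cells as a whole, which hold both V beta groups, and in each of these groups. Lgals3 lies at 0.98 in NKT1-gated and -1.45 in NKT17-gated cells.

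In Treg-gated cells Anxa2 was at 233 CPM in BM + Spl and 143 CPM in BM only, and S100a4 at 698 and 948 CPM. Cycling cells held 1582 and 1520.0 CPM of Lgals1 and 1474 and 1552 CPM of Vim. The gate on plasmacytoid dendritic cell (pDC) markers had the highest Lgals1, at 3138 and 3853 CPM, and 688 and 1000.1 CPM of Lgals3. The gate on myeloid markers, with 173 cells in BM + Spl and 74 in BM only, held 881 and 1330.4 CPM of Lgals3. In both libraries these cells held RNA of pDC markers, against the name of their gate. The pDC marker Siglech was at 1424 and 1017 CPM in the myeloid gate of BM + Spl and BM only, beside 1148 CPM in the pDC gate of BM only. The myeloid marker Lyz2 was at 268 and 2563 CPM in the myeloid gate, so the gate held different cells in the 2 libraries.

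Related genes, grouped in lists, were read by the same rule. Of 10 genes of effector migration and membranes, 4 of 9 tested were higher in NKT1-gated than NKT2-gated cells of C57BL/6, 6 of 10 in BM only and 8 of 10 in BM + Spl, with 0 lower in each. They included Itgb1, an integrin chain, at 177 against 45.9 CPM, 233 against 59.9 CPM and 396 against 61.3 CPM in the 3 libraries, and Cd44, a hyaluronan receptor, at log2 ratios of 1.69, 2.15 and 2.56. Crip1, a LIM domain protein, had ratios of 0.80, 1.19 and 1.92. In NKT17-gated over NKT2-gated cells 1 of 9, 9 of 10 and 9 of 10 were higher. Over all genes tested 13.4%, 14.6% and 14.6% were higher in the NKT1 and 7.75%, 9.7% and 11.3% in the NKT17 comparison, to which the C57BL/6 count of 1 of 9 was near.

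Of 18 actin cytoskeleton genes, 16, 16 and 15 passed in neither direction in NKT1-gated against NKT2-gated cells of C57BL/6, BM only and BM + Spl. Most of all genes tested passed in neither direction too, with 13.4%, 14.6% and 14.6% higher and 10.8%, 11.4% and 10.5% lower. Myo1f, a myosin of leukocytes, was higher in each library, at log2 ratios of 3.36, 3.59 and 3.30. In each library 1 actin cytoskeleton gene was lower, Flna in C57BL/6 (-0.78) and Actn1 in BM only (-1.24) and BM + Spl (-0.96). Of the other annexins tested, 1 of 4, 3 of 5 and 4 of 5 were higher in the NKT1 comparison, against the same shares over all genes, among which Anxa1 had ratios of 3.81 in BM only and 4.29 in BM + Spl. S100a13, the 1 other S100 gene with enough UMIs, had ratios of -0.13, 0.23 and 0.77, of which the last passed. In NKT1-gated cells of BM + Spl against BM only, 1 of 3 other galectins tested was higher and 0 lower. This was Lgals7, at 108 against 2.38 CPM. Of the 10 effector migration and membrane genes, 4 were higher and 1 lower. The lower one was Klf2, a factor that keeps T cells able to leave tissue, at 261 against 616 CPM. Of all genes tested 7.95% were higher and 8.12% lower. These cells differed in V beta segments between the libraries, as given above.

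Across thinned cells of a subset, the 28 pairs of the 8 genes had median Pearson correlations of 0.14 to 0.29 in NKT1-gated, NKT2-gated and NKT17-gated cells of the 3 libraries, on log2(UMI + 1), which is weak throughout. Lgals1 and Vim correlated at 0.35 to 0.47 in the 9 groups, and S100a10 and Anxa2 at 0.06 to 0.28. S100a4 and S100a6, which lie close together on chromosome 3, ranged from 0.24 to 0.54. Cells of a group share a library and a depth.

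Over 27 gate-by-library profiles of at least 50 cells, the profiles of S100a10 and the mean of the other 7 genes correlated at -0.19, and those of Vim and the mean of the others at 0.62. By Pearson r with the mean of the 8 genes, among 9863 genes with at least 500 UMIs, the most similar profiles were those of Aqp3 (0.82), Plxnd1 (0.80), Selenop (0.79), Cdc42 (0.79) and Acvr2a (0.77). Taken gene by gene, the nearest were Crip1 for Vim (0.92), Cd6 for S100a10 (0.92), Gltp for Lgals1 (0.92) and Daglb for S100a4 (0.83). Profiles were not centred by library, so differences between libraries enter these values along with those between subsets and cannot be told apart from them. Profiles of 1 library share its depth and table, so these values describe these 3 libraries only.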

How the data were processed

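Reads were aligned by the authors to mm10 with Cell Ranger, and the deposited values are raw UMI counts per gene and called barcode, with nothing normalized. Per the file headers Cell Ranger 3.0.2 made the C57BL/6 table and 7.0.0 the 2 BMT tables, and per the labels Seurat 4.0.2 was used later. The libraries held 60600408, 35041153 and 43383960 UMIs in 4613, 5986 and 5573 cells (C57BL/6, BM only, BM + Spl).

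Each filtered cell was put into 1 of 11 gates by raw UMIs of marker genes, taken in a fixed order. NKT1, NKT2, pDC, B and CD8 gates needed at least 3 UMIs of their list, NKT17 2, cycling and myeloid 5, and NKT1 and NKT2 at least 2 times the UMIs of the other list. A V beta call needed at least 2 V beta UMIs, 80% of them on iNKT or on other segments. UMIs were summed per gate and library over the 30406 shared genes. Levels have exact Poisson intervals, log2 ratios an interval from the Clopper-Pearson interval of the UMI share, and shares a Clopper-Pearson interval, all at 95% and for counting error only. A gene was called past 1.5-fold with an interval on that side of 0, among genes with at least 200 UMIs in both groups together. Cells were thinned to 2500 UMIs for shares, sums and correlations. With 1 library per condition no test was run. No doublet caller was run, and an alternative left out the 5% of cells with most UMIs.

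The 8 genes are named in full, related genes come from 5 lists, and the genes of like pattern are those with the highest correlation. Members, lists and gates were chosen with earlier results of these data known. The alternatives changed the gates, the cells compared, the filter and the scaling, and 3 were chosen after seeing the data (cells at or under the median UMIs of their gate, all filtered cells without the gates of other cell types, and the alternatives of NKT17-gated BM + Spl over BM only). The calculation of ratios and intervals was checked on simulated Poisson counts. Such counts hold no spread between cells or mice, so the check says nothing of that spread. Python 3.11.15, numpy 2.4.6, scipy 1.17.1, pandas 2.3.3 and matplotlib 3.10.9 were used.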

Additional observations from a re-analysis of the deposited data

Results flagged for a closer look

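Lgals3 went in opposite directions by subset between BM + Spl and BM only. Its log2 ratio was 0.98 in NKT1-gated cells and 0.94 in NKT2-gated cells, but -1.45 in NKT17-gated cells. With gates set on thinned cells these ratios were 0.74, 0.13 and -0.74, and with an iNKT V beta 0.56, 0.89 and -0.90, so the NKT2 value under the first and the NKT1 value under the second were within 1.5-fold. Each is a ratio of 1 library to another, and the difference between the subsets was not tested.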

How the results depend on the processing

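Of 98 recomputed medians of the 8 genes, 0 changed sign, 58 moved by less than their counting interval and 40 by more. The medians in the order NKT1 over NKT2 in C57BL/6, BM only and BM + Spl were -0.11, 0.59 and 1.06, and NKT17 over NKT2 0.44, 0.96 and 0.90. BM + Spl over BM only was 0.60 in NKT1-gated, 0.15 in NKT2-gated and -0.08 in all filtered cells. The values below are those that moved, and the cause was not tested.

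With gates set on thinned cells, NKT1 over NKT2 was 0.45 in BM only and 0.97 in BM + Spl, NKT17 over NKT2 1.07 in BM + Spl, and BM + Spl over BM only 0.55 in NKT1-gated and 0.06 in NKT2-gated cells. Stricter gates gave 1.20, 1.11 and, in NKT2-gated cells, 0.024. With an iNKT V beta, BM + Spl had 0.88 and 0.97, and BM + Spl over BM only was 0.47, 0.10 and, in all filtered cells, -0.15. With mitochondrial and ribosomal protein genes left out of the total, NKT1 over NKT2 was -0.17, 0.51 and 0.95 and NKT17 over NKT2 0.36, 0.87 and 0.80. Median-of-ratios scaling gave 0.34 for NKT17 over NKT2 in C57BL/6. With over 500 genes and under 5% mitochondrial UMIs, C57BL/6 had -0.26 and 0.54. Without the 5% of cells with most UMIs it had -0.20 for NKT1 over NKT2, and NKT1-gated BM + Spl over BM only was 0.67. The mean of CPM per cell gave 0.72 and 1.20 for NKT1 over NKT2, 1.19 and 1.09 for NKT17 over NKT2 in BM only and BM + Spl, and 0.70, 0.20 and -0.040 for BM + Spl over BM only. Without cells holding a myeloid marker UMI, all filtered cells had -0.030. In cells at or under the median UMIs of their gate, NKT1 over NKT2 was -0.25, 0.87 and 1.46, NKT17 over NKT2 1.56 and 1.57 in the BMT libraries, and BM + Spl over BM only 0.84 in NKT1-gated and 0.31 in NKT2-gated cells. Without gates of other cell types, all filtered cells had -0.041.

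Of 872 recomputed ratios of single genes, 371 moved beyond their counting interval and 42, all of ratios within 1.5-fold as first computed, changed sign. The iNKT V beta alternative was not run in C57BL/6, where 9 NKT1-gated and 14 NKT17-gated cells had such a call. No paired analysis was possible because each group is 1 library, and no library was left out. With 200 UMIs needed for a comparison, most S100 genes outside the 8 were not read.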
